A study of Mus musculus with 29 samples.

Results

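The question was whether losing PKCδ and PKCε together changed heart RNA after pressure overload by more or less than the separate losses add up to. The measure was the departure from additivity, which is the log2 level in combined-ablation hearts, minus that after PKCδ ablation, minus that in PKCε knockouts, plus that in wild type. It is 0 where the separate log2 effects add up, positive where the combined-ablation hearts stand above their sum and negative where they stand below it. It was computed from the 15 libraries of hearts under pressure overload, made by tying the aorta narrower for 4 weeks (transverse aortic constriction, TAC), out of 29 libraries in the series. The 15 comprised 4 libraries of combined ablation, 3 of postnatal cardiac PKCδ ablation alone, 4 of germline PKCε knockout alone and 4 of wild type (titled ntg), all after TAC, from mice on the C57BL/6J background labelled 12 weeks old. The other 14 libraries, used only in the last comparison, were from unstressed hearts of the same genotypes (4 combined, 3 PKCδ, 3 PKCε and 4 wild type). The labels name no promoter, Cre line or deleted exon, and give the tissue as the whole heart while the protocol names the ventricular apex. Polyadenylated RNA was counted per gene, with 12246713 to 17314598 counts per TAC library and 13490 of 23418 genes passing a filter on low counts.

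PKCδ (gene Prkcd) and PKCε (Prkce) are the calcium-independent, diacylglycerol-activated isoforms of protein kinase C that act downstream of Gq-coupled receptors in heart muscle, and they are known for partly opposite roles in cell survival and growth. Pressure overload makes the ventricle hypertrophy, and its muscle cells switch on genes of the fetal heart such as those for natriuretic peptides and β-myosin heavy chain, while genes of fatty acid oxidation and calcium handling decline. Fibroblasts add matrix. In RNA from whole tissue, fewer cells of a type and less RNA per cell cannot be told apart.

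The targeted genes were read in each TAC library before the departures, in CPM (counts scaled to library size). Prkce had 9.83, 32.6, 8.42 and 11.3 CPM in combined-ablation hearts, 45.4, 46.2 and 44.6 CPM after PKCδ ablation, 11.1, 7.46, 10.96 and 9.40 CPM in PKCε knockouts and 41.5, 24.6, 34.3 and 44.3 CPM in wild type. The library labelled combined ablation replicate 2 thus stood above the other PKCε-null hearts. It lay between wild type replicate 2, the lowest of its group, and the other wild-type libraries, and below every PKCδ library. Prkcd had 18.8, 16.7, 26.2 and 22.6 CPM in combined-ablation hearts, 18.3, 18.9 and 21.5 CPM after PKCδ ablation, 24.5, 26.6, 25.1 and 25.5 CPM in PKCε knockouts and 24.1, 20.97, 28.9 and 21.3 CPM in wild type. Its PKCδ group lay below the PKCε group without overlap, while every other pair of groups overlapped. The deleted part of the gene is not stated. Myh2, a myosin of skeletal muscle, separated the same libraries. Myh2 had 7.75, 0.158, 6.44 and 6.69 CPM in combined-ablation hearts, 0.201, 0.207 and 0.0699 CPM after PKCδ ablation, 4.84, 3.07, 18.6 and 9.64 CPM in PKCε knockouts and 0.0690, 10.5, 0.267 and 0.288 CPM in wild type, so the library labelled combined ablation replicate 2 was low like the PKCδ group and wild type replicate 2 was high like the PKCε group. On the first principal component of log2 CPM, with 24.4% of the variance, combined ablation replicates 1, 3 and 4 lay at 43.3, 13.5 and 20.2 and replicate 2 at -4.25. The other groups lay between -21.7 and 10.97. Whether the labels of these 2 libraries were exchanged, or whether a library holds more than 1 sample, was not tested. Counts and leading list medians are given with and without the library labelled combined ablation replicate 2, and for 7 lists also without both. Transcripts of the sex chromosomes went against the sex labels too. In 10 of 15 libraries both Xist and the Y-linked transcripts exceeded 1 CPM, 3 of 9 libraries labelled male had no more than 1 CPM of Y-linked transcripts and 4 of 6 labelled female had more. Since 3 of 4 combined, 2 of 3 PKCδ, 0 of 4 PKCε and 1 of 4 wild-type libraries were labelled female, the label was tried as a term, and its own part in the departures was not tested.

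No gene was called as departing from additivity after TAC in edgeR's quasi-likelihood test. At a Benjamini-Hochberg adjusted p under 0.05 the test called 0 of 13490 genes (0%), and the smallest adjusted p was 0.585. At an unadjusted p under 0.05 it counted 1032 genes (7.65%), 577 above the sum (4.28%) and 455 below it (3.37%). DESeq2 called 3 genes, Nupr1 above the sum and Pdp2 and Tmem143 below it, each at an adjusted p of 0.0493. The median departure of all genes was 0.0059, with 51.1% of genes above 0, and its median absolute size of 0.15 was below the median standard error (SE) of 0.18. Without the library labelled combined ablation replicate 2, 1 gene was called (0.00743% of 13467), Mylk4 below the sum, and 1870 genes (13.9%) had an unadjusted p under 0.05. Of these, 1012 stood above the sum (7.51%) and 858 below it (6.37%). Without PKCδ replicate 1 the unadjusted count was 653. Each other library left out gave 751 to 1310 such genes. What follows describes the direction shared by gene lists, with no test of a list. A departure printed for a gene is an estimate with its SE, and each gene named below had an adjusted p of 0.585 or higher in edgeR with all 15 libraries.

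**Figure D1:**
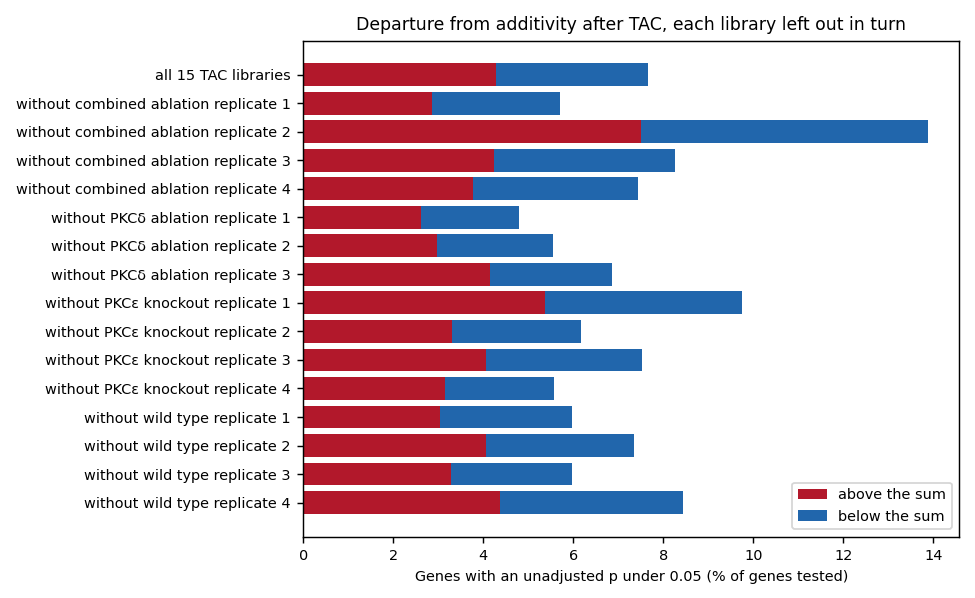
Bars give the percentage of genes tested whose departure had an unadjusted p under 0.05, split into genes above and below the sum of the separate effects, for all 15 TAC libraries and with each library left out in turn. The bar is longest without combined ablation replicate 2 (1870 genes) and shortest without PKCδ ablation replicate 1 (653 genes), against 1032 genes with all libraries.

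Genes of the cardiac stress and fetal program stood above the sum. Of 25 listed genes, all passed the filter, 22 had a departure above 0 against 51.1% of all genes, and 13 had an unadjusted p under 0.05 above the sum against 4.28% of all genes, with 0 below it. The list's median departure was 0.65, or 0.62 without the library labelled combined ablation replicate 2. Nppa had 7242, 1743, 6422 and 5627 CPM in combined-ablation hearts, 486, 699.8 and 1464 CPM after PKCδ ablation, 5438, 1602, 2595 and 1226 CPM in PKCε knockouts and 2032, 1550.3, 2502 and 1772 CPM in wild type. Nppa, at chr4:148000722-148002074 in GRCm38.p6, the build of all positions here, encodes atrial natriuretic peptide, and its departure was 2.11 ± 0.81 (± SE, adjusted p = 0.629). Apart from replicate 2, the combined-ablation hearts had more Nppa than every other library, and the PKCδ group lay below all wild-type libraries. Myh7 had 9660.5, 3809, 4687 and 10613 CPM in combined-ablation hearts, 731, 1262 and 890.2 CPM after PKCδ ablation, 2939, 3930.0, 6369 and 3519 CPM in PKCε knockouts and 2087, 3959, 2416 and 970.1 CPM in wild type. Myh7, at chr14:54970684-54994626, encodes β-myosin heavy chain, the slow fetal isoform, and departed by 2.07 ± 0.67, or 2.28 ± 0.65 without replicate 2. The PKCδ and combined-ablation groups did not overlap, while the PKCε and wild-type groups did.

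Ankrd1 had 6942, 3377, 5966 and 6730.0 CPM in combined-ablation hearts, 3456, 4177 and 2984 CPM after PKCδ ablation, 5516, 2852, 4729.6 and 3497 CPM in PKCε knockouts and 5136, 5628, 4467 and 3262 CPM in wild type. Ankrd1 encodes a titin-binding ankyrin repeat protein of the stressed myocyte and departed by 0.86 ± 0.37. Acta1 had 7331, 4153, 7417 and 9498 CPM in combined-ablation hearts, 5439, 5411 and 4624 CPM after PKCδ ablation, 6846, 4379, 3312 and 1954 CPM in PKCε knockouts and 8869.7, 6493, 3629 and 5000.2 CPM in wild type, and this α-actin of skeletal muscle and fetal heart departed by 1.002 ± 0.55, with every pair of groups overlapping. Nppb, for brain natriuretic peptide, departed by 0.78 ± 0.35, Ctgf, for a matricellular growth factor modulator, by 1.70 ± 0.59, and Fhl1, for a LIM protein of the sarcomere, by 0.94 ± 0.38. Actc1 (-0.15), Acta2 (-0.34) and Myl7 (-0.57) were the 3 members below 0, and Myl7 encodes an atrial light chain read at 0 to 0.552 CPM in combined-ablation hearts and 0.267 to 1.52 CPM in wild type. Opposite-strand exons cover 61.5% of the Nppa exons and 13.3% of those of Myh7, and the libraries did not keep strand, so these counts may include antisense reads.

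Promoters of Acta1 and Ankrd1 are shown because binding motifs of SRF and TEAD, transcription factors known from muscle, lie in them. Each window of 300 bases spans the gene's start, on the minus strand of GRCm38.p6 as RefSeq gives them, 5′ to 3′, with matches in capitals. In Acta1, at chr8:123894726-123895025, the capitals mark a CArG box of SRF and, after it, a TEAD motif on the opposite strand. In Ankrd1, at chr19:36119795-36120094, they mark 2 TEAD motifs.
Acta1: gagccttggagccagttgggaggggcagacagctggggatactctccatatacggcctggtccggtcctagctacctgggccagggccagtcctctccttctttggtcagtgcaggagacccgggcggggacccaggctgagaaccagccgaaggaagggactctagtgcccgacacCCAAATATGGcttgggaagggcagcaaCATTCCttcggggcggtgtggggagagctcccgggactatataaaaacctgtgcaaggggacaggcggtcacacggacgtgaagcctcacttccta
Ankrd1: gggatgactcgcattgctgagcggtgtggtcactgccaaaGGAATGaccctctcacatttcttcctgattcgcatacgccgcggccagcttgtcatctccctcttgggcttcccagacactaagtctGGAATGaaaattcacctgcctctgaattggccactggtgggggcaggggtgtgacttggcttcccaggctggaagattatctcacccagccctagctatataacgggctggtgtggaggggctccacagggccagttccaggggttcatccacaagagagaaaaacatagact
The TEAD motif was searched as GGAATG on both strands and was found in 14.7% of 32851 RefSeq promoters, and in 10 of 27 promoters (37.0%) of the 21 stress and fetal genes that matched. The CArG box was found in 1.63% of all promoters and in 4 of the 27 (14.8%), and an AP-1 motif, TGANTCA, in 7.81% of all and 2 of the 27 (7.41%). The 20 matched matricellular promoters held the TEAD motif in 2 and neither of the others, and the 29 fatty acid promoters held it in 5 (17.2%), with AP-1 in 1 (3.45%) and the CArG box in 0. Such matches describe the letters of these windows and do not show binding.

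Among the 27 pathway lists, departures of the list scores ran from matrix and stress genes at the top to fatty acid genes at the bottom, as the plot of list departures shows. A list score is the mean log2 CPM over the tested members in a library, and its SE comes from the spread between libraries. The stress and fetal score departed by 0.71 ± 0.23, or 0.83 ± 0.20 without replicate 2. Scores relative to the wild-type mean were 0.57, -0.0025, 0.47 and 0.39 in combined-ablation hearts, -0.34, -0.19 and -0.20 after PKCδ ablation, 0.27, -0.27, -0.076 and -0.37 in PKCε knockouts and 0.14, 0.12, -0.059 and -0.20 in wild type. Combined-ablation replicates 1, 3 and 4 exceeded every other library. For 12 of the 43 lists, no left-out library moved the median departure by over 1.5 times. These were the stress and fetal, matricellular, collagen, early-response, fibroblast, BCL-2, fatty acid, branched-chain, TCA cycle, mitochondrial regulator, ion channel and cardiomyocyte lists. With combined ablation replicate 2 and wild type replicate 2 both left out, medians were 0.70 for stress and fetal genes, 0.91 for matricellular genes, 0.89 for collagens, 0.45 for early-response genes, 0.51 for fibroblast markers, -0.33 for fatty acid genes and -0.28 for branched-chain genes, and 1799 genes had an unadjusted p under 0.05 in edgeR, with 0 called.

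**Figure D2:**
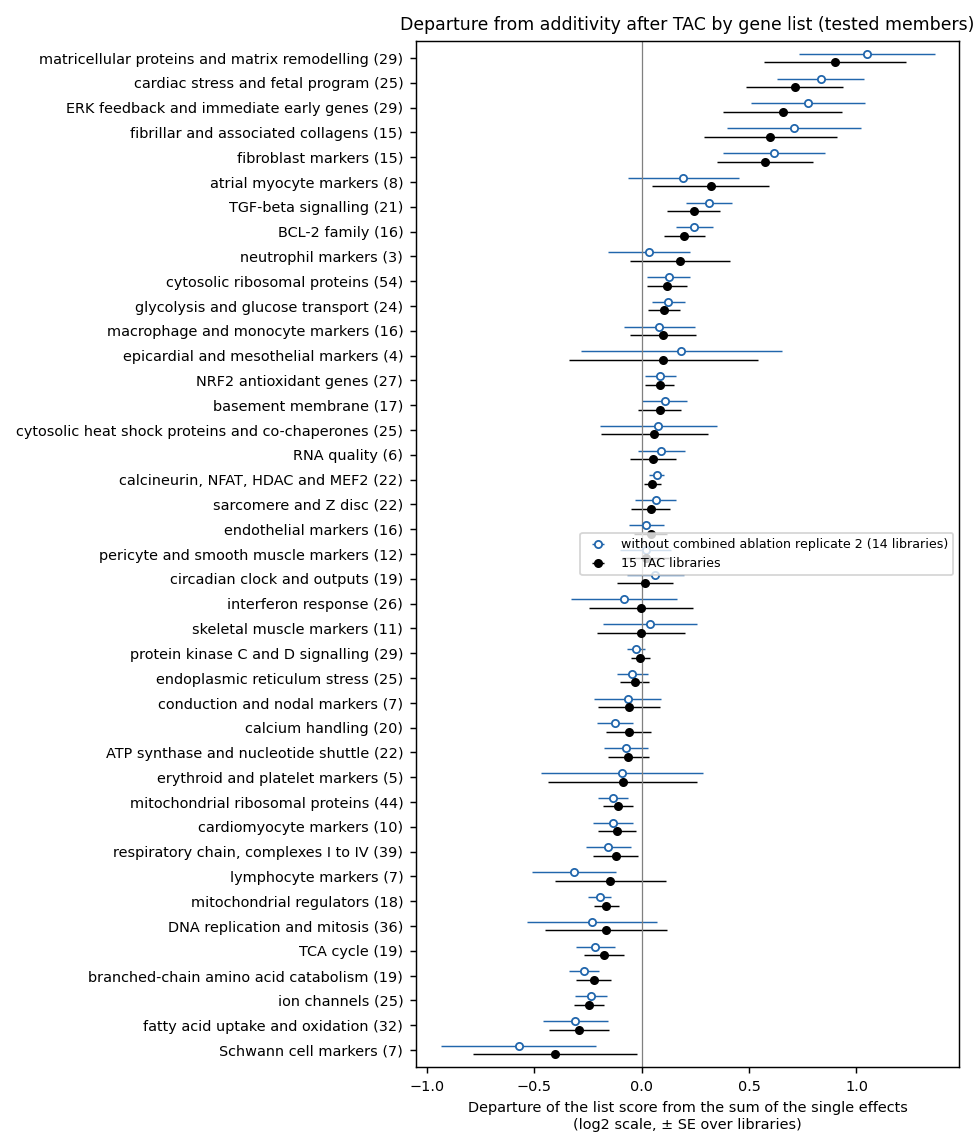
Points give the departure of each list score from the sum of the separate effects (log2 scale, bars ± SE over libraries), filled for all 15 TAC libraries and open without combined ablation replicate 2, with the number of tested members in parentheses; the sex-linked list and a list with 1 tested member are left out. The matricellular list (0.90 ± 0.33) and the stress and fetal list (0.71 ± 0.23) stand highest of those drawn, while fatty acid uptake and oxidation (-0.29 ± 0.14) and ion channels (-0.25 ± 0.069) lie below 0.

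Matrix genes stood above the sum as well. All 29 tested of 30 listed matricellular and matrix-remodelling genes had a departure above 0, against 51.1% of all genes. Of them, 13 had an unadjusted p under 0.05, against 4.28% of all genes above the sum. Their median was 0.70, or 0.84 without replicate 2. Thbs4 had 304, 121, 181 and 167 CPM in combined-ablation hearts, 17.5, 29.7 and 47.5 CPM after PKCδ ablation, 154, 58.1, 97.8 and 55.6 CPM in PKCε knockouts and 111, 42.9, 74.2 and 57.1 CPM in wild type. Thbs4, at chr13:92751586-92794818, encodes thrombospondin 4, a matrix protein of stressed heart, and departed by 2.26 ± 0.67. Its PKCδ and combined-ablation groups did not overlap.

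Among proteases and their inhibitors, Mmp14, a membrane-bound metalloproteinase, departed by 0.67 ± 0.19, Mmp2, a gelatinase, by 0.71 ± 0.22 and Timp1, which inhibits metalloproteinases, by 1.49 ± 0.64. Mmp14 had 45.3, 32.9, 37.7 and 41.3 CPM in combined-ablation hearts, 27.2, 26.3 and 38.9 CPM after PKCδ ablation, 26.4, 35.1, 35.9 and 29.01 CPM in PKCε knockouts and 37.5, 37.4, 39.9 and 42.7 CPM in wild type. The Mmp14 level in combined-ablation hearts thus overlapped that of wild type, and lower values after either separate loss made up its departure. Lox, which cross-links collagen, departed by 2.10 ± 0.81, Ltbp2, a latent TGF-β binding protein family member, by 1.81 ± 0.66 and Fn1, for fibronectin, by 0.65 ± 0.27. Postn, for periostin, stood at 1.36 ± 0.66 with an unadjusted p of 0.064 in edgeR. The other members with an unadjusted p under 0.05 were Bgn (0.81), Cilp (1.37), Eln (0.82), Adamts2 (0.61), Thbs1 (1.65) and Dcn (0.44). The matricellular score departed by 0.90 ± 0.33, or 1.05 ± 0.32 without replicate 2.

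Of 15 tested fibrillar and associated collagens, 14 had a departure above 0, with a median of 0.61 and 0.73 without replicate 2. An unadjusted p under 0.05 above the sum was found for 5 of them, against 4.28% of all genes. Col12a1 had 27.5, 12.2, 20.3 and 16.6 CPM in combined-ablation hearts, 4.02, 4.75 and 7.34 CPM after PKCδ ablation, 18.3, 8.48, 10.3 and 5.31 CPM in PKCε knockouts and 13.2, 4.05, 12.6 and 8.93 CPM in wild type. Col12a1, whose product associates with collagen fibrils, departed by 1.70 ± 0.63. Col8a1, for a short-chain collagen, departed by 0.99 ± 0.38, Col1a2 by 0.73 ± 0.32, Col5a2 by 0.81 ± 0.36 and Col16a1 by 0.82 ± 0.34. Col1a1, for a chain of type I collagen, departed by 0.77 ± 0.39 with an unadjusted p of 0.07 in edgeR. The collagen score departed by 0.60 ± 0.31, or by 0.71 ± 0.31 without replicate 2.

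Fibroblast markers stood above the sum like the matrix lists. Of 15 markers, all tested, 14 had a departure above 0, 7 with an unadjusted p under 0.05, against 4.28% of all genes. The median was 0.53, or 0.56 without replicate 2. The list shares 2 members with the matricellular list and 2 with the collagens. Mfap5 had 112, 47.2, 71.9 and 87.5 CPM in combined-ablation hearts, 29.98, 36.9 and 35.8 CPM after PKCδ ablation, 61.01, 41.4, 53.02 and 30.5 CPM in PKCε knockouts and 50.4, 39.5, 51.7 and 43.05 CPM in wild type, and this microfibril protein departed by 1.21 ± 0.37, or 1.38 ± 0.30 without replicate 2. Cthrc1, a secreted protein of activated fibroblasts, departed by 2.82 and Fbln1, for fibulin 1, by 0.53 ± 0.19, whereas Pdgfra, the receptor that defines resident fibroblasts, departed by 0.37 ± 0.21 and Ddr2, a collagen receptor, by -0.16 ± 0.17, neither with an unadjusted p under 0.05. Summed over the list, the markers ranged over 3691 to 4802 CPM in combined-ablation hearts, 3302 to 3949 CPM after PKCδ ablation, 3119.6 to 4646 CPM in PKCε knockouts and 3728 to 5518 CPM in wild type. The part of the fibroblast share in the matrix departures was not tested.

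**Figure D3:**
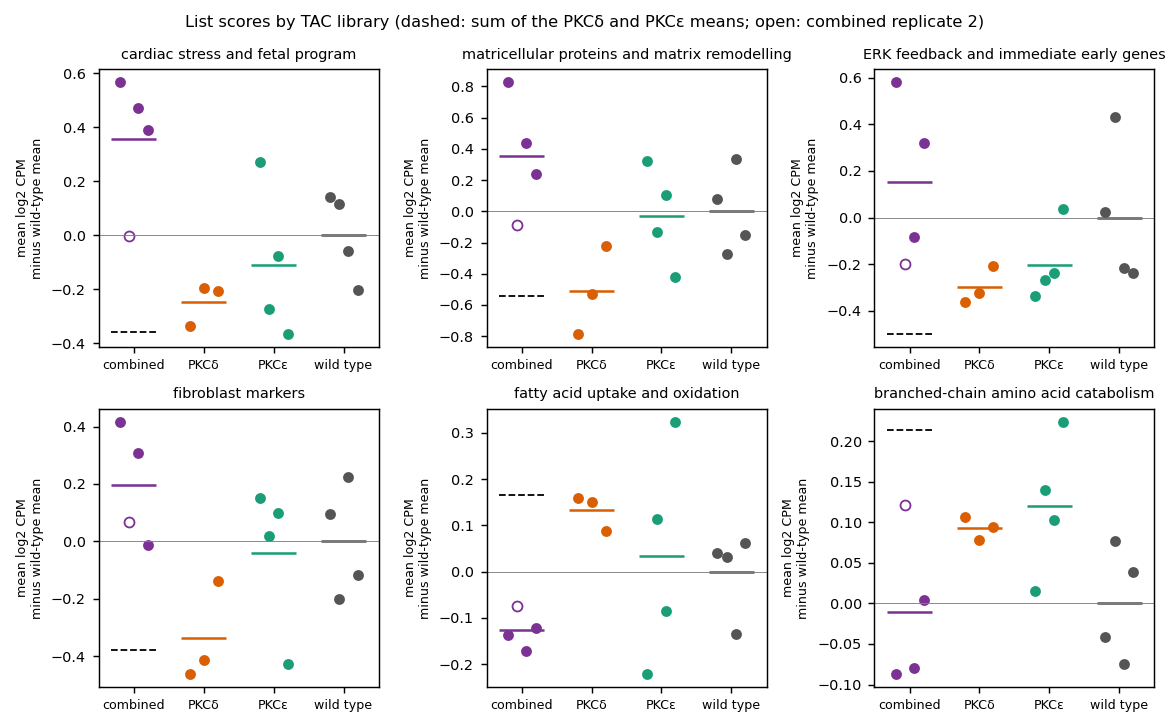
Each point is a TAC library, with the list score (mean log2 CPM minus the wild-type mean) on the vertical axis and the genotype on the horizontal axis; solid lines are group means, dashed lines are the sum of the PKCδ and PKCε means, and the open point is combined ablation replicate 2. Stress, matrix, early-response and fibroblast lists have combined means above the dashed line (departures 0.71 ± 0.23, 0.90 ± 0.33, 0.66 ± 0.28 and 0.57 ± 0.22), while fatty acid and branched-chain lists have combined means below it (-0.29 ± 0.14 and -0.22 ± 0.080).

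ERK feedback and immediate early genes, which growth signals switch on within minutes and which sit downstream of PKC through ERK, also stood above the sum. Of 29 tested, 27 had a departure above 0 and 5 an unadjusted p under 0.05, against 4.28% of all genes above the sum. The median was 0.54, or 0.65 without replicate 2. Junb had 35.3, 19.2, 34.00 and 46.2 CPM in combined-ablation hearts, 23.2, 23.4 and 26.8 CPM after PKCδ ablation, 27.7, 30.2, 19.8 and 30.8 CPM in PKCε knockouts and 41.4, 78.4, 39.6 and 26.6 CPM in wild type. Junb, an AP-1 subunit, departed by 1.24 ± 0.47, but its combined-ablation values lay within the wild-type range or below it, and both separate losses had lower means than wild type. Without wild type replicate 2, the highest Junb library, the list's median was 0.37, the lowest of the 15 leave-outs. Etv5 and Etv4, ETS factors induced by ERK, departed by 0.74 ± 0.30 and 1.12 ± 0.49, Ier2 by 0.81 ± 0.37 and Egr3, a zinc finger early-response factor, by 2.30 ± 1.04. Fos (2.68 ± 1.32) had a larger estimate with a larger error and an unadjusted p of 0.066 in edgeR.

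Of 21 TGF-β signalling genes, 17 had a departure above 0 and 5 an unadjusted p under 0.05, against 4.28% of all genes above the sum. Their median departure was 0.19. It was 0.27 without combined ablation replicate 2 and 0.10 without combined ablation replicate 1. The ligands Tgfb2 and Tgfb3 departed by 0.79 ± 0.33 and 0.40 ± 0.16, the type I receptor Tgfbr1 by 0.54 ± 0.19 and the latency protein Ltbp3 by 0.52 ± 0.22. The signal transducers Smad2, Smad3 and Smad4 stood at -0.099, -0.19 and -0.10. In the BCL-2 family, the survival gene Bcl2 departed by 0.78 ± 0.29 and the death-promoting genes Bak1 and Bik by 0.38 ± 0.14 and 0.67 ± 0.25, with 13 of 16 above 0 and a median of 0.15. Opposite-strand exons cover 25.5% of the Bak1 exons.

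The 5 genes with the smallest p above the sum were Nupr1, Fam105b, Grk5, Emp1 and Piezo2, none of them called by edgeR, and Nupr1 called by DESeq2. Nupr1 had 31.2, 15.7, 24.2 and 20.8 CPM in combined-ablation hearts, 8.43, 11.1 and 13.1 CPM after PKCδ ablation, 15.7, 10.5, 11.2 and 7.11 CPM in PKCε knockouts and 14.8, 16.3, 12.4 and 13.7 CPM in wild type. Nupr1, at chr7:126623246-126625470, encodes a small stress-induced nuclear protein and departed by 1.44 ± 0.34, or 1.58 ± 0.31 without replicate 2. Apart from replicate 2, the combined-ablation hearts lay above every other library. Grk5 had 56.04, 45.7, 37.8 and 51.00 CPM in combined-ablation hearts, 30.4, 37.3 and 31.8 CPM after PKCδ ablation, 33.5, 27.7, 39.1 and 31.3 CPM in PKCε knockouts and 41.05, 42.8, 36.5 and 33.04 CPM in wild type. Grk5, at chr19:60889560-61095968, encodes a kinase that desensitizes β-adrenergic and other G protein-coupled receptors, and departed by 0.75 ± 0.18, or 0.76 ± 0.20 without replicate 2. Emp1 had 133, 93.5, 106 and 98.1 CPM in combined-ablation hearts, 66.7, 63.5 and 70.1 CPM after PKCδ ablation, 94.3, 63.8, 83.7 and 68.00 CPM in PKCε knockouts and 84.6, 71.2, 82.1 and 75.5 CPM in wild type, and this epithelial membrane protein departed by 0.71 ± 0.18, with its combined-ablation group overlapping the PKCε group alone. Piezo2 had 7.40, 6.94, 5.90 and 7.27 CPM in combined-ablation hearts, 2.07, 4.82 and 3.98 CPM after PKCδ ablation, 6.15, 4.15, 3.99 and 3.68 CPM in PKCε knockouts and 6.14, 5.16, 5.41 and 4.90 CPM in wild type. Piezo2 encodes a mechanically gated channel, and its departure was 1.18 ± 0.30, and its combined-ablation group did not overlap the PKCδ group.

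Fam105b had 36.7, 26.8, 28.7 and 40.5 CPM in combined-ablation hearts, 19.9, 22.8 and 20.9 CPM after PKCδ ablation, 24.02, 21.5, 21.9 and 19.8 CPM in PKCε knockouts and 25.4, 23.1, 21.7 and 20.6 CPM in wild type. Fam105b encodes the deubiquitinase OTULIN, and its combined-ablation group lay above every other library, with a departure of 0.70 ± 0.17. Among NRF2 antioxidant genes, whose median was 0.023, Hmox1, for heme oxygenase 1, departed by 0.90 ± 0.25 and Gpx3, for a secreted glutathione peroxidase, by 0.69 ± 0.31. Hmox1 had 19.2, 13.8, 18.1 and 21.04 CPM in combined-ablation hearts, 13.7, 10.95 and 12.9 CPM after PKCδ ablation, 14.3, 14.3, 16.6 and 13.4 CPM in PKCε knockouts and 15.2, 18.8, 26.7 and 15.2 CPM in wild type, so the combined-ablation group overlapped wild type and the PKCδ group lay below both. Glycolysis and glucose transport genes had a median of 0.098, but 0.024 without combined ablation replicate 1, 0.061 and 0.058 without PKCε replicates 2 and 3 and 0.054 without wild type replicate 2. In this list Slc16a3, the lactate exporter MCT4, departed by 1.33 ± 0.41 and Hk1, a hexokinase, by 0.44 ± 0.17. Hk2, the insulin-regulated hexokinase of muscle, went the other way at -0.25 ± 0.11.

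**Figure D4:**
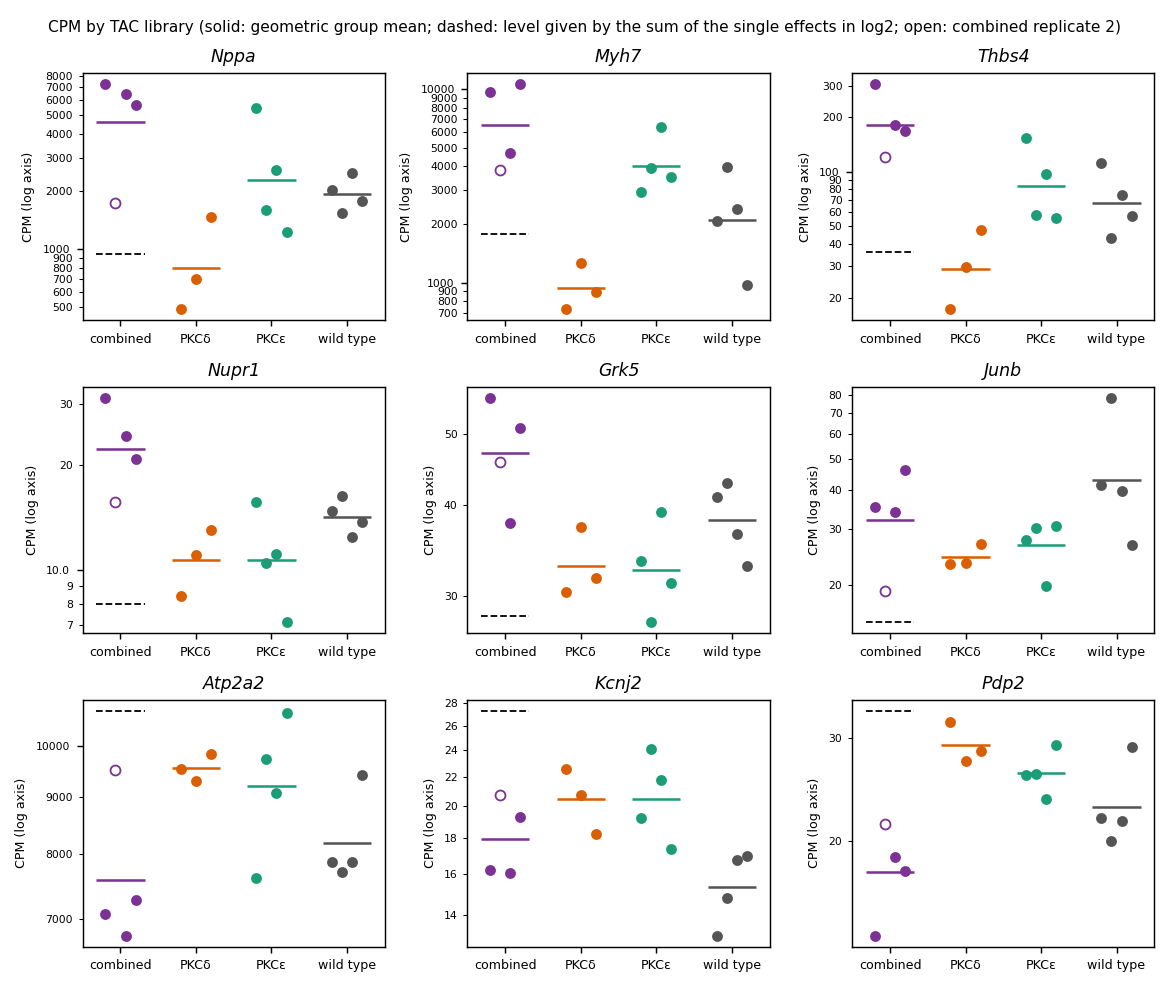
Points are TAC libraries, with CPM on a log axis and the genotype on the horizontal axis; solid lines are geometric group means, dashed lines are the level that the sum of the separate log2 effects gives for combined ablation, and the open point is combined ablation replicate 2. Nppa, Myh7, Thbs4, Nupr1, Grk5 and Junb have combined means above the dashed line (departures 2.11, 2.07, 2.26, 1.44, 0.75 and 1.24), and Atp2a2, Kcnj2 and Pdp2 have combined means below it (-0.49, -0.61 and -0.89).

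Genes of fuel oxidation stood below the sum. Of 32 fatty acid uptake and oxidation genes, 29 had a departure below 0, 12 with an unadjusted p under 0.05 against 3.37% of all genes, and 0 with such a p above it. The median was -0.28, or -0.32 without replicate 2. Acaa2 had 301, 445, 372 and 385 CPM in combined-ablation hearts, 537, 558 and 517 CPM after PKCδ ablation, 411, 487, 449 and 619.7 CPM in PKCε knockouts and 458, 554, 453 and 487 CPM in wild type. Acaa2, the thiolase of the last step of mitochondrial β-oxidation, departed by -0.53 ± 0.18. Mlycd, which removes the malonyl-CoA that blocks fatty acid entry, departed by -0.34 ± 0.12, Cpt2, of the carnitine shuttle, by -0.44 ± 0.17, Acadvl, the very-long-chain dehydrogenase, by -0.28 ± 0.11, Hadha, of the trifunctional protein, by -0.32 ± 0.13 and Acsl1, which activates fatty acids, by -0.37 ± 0.17. Acot1, an acyl-CoA thioesterase, had the lowest value at -1.58 ± 0.59. Cpt1b, the entry enzyme of muscle, stood at -0.32 ± 0.15 with an unadjusted p of 0.051 in edgeR, and Pdk4, an inhibitory kinase of pyruvate dehydrogenase, at 0.003.

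The fatty acid score departed by -0.29 ± 0.14, or -0.31 ± 0.15 without replicate 2. Scores relative to wild type were -0.14, -0.075, -0.17 and -0.12 in combined-ablation hearts, 0.16, 0.15 and 0.088 after PKCδ ablation, -0.22, 0.11, -0.085 and 0.32 in PKCε knockouts and 0.041, 0.031, -0.13 and 0.062 in wild type. The PKCδ group lay above the combined-ablation group without overlap, while the PKCε group spread over both.

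Branched-chain amino acid genes had 18 of 19 departures below 0, 4 with an unadjusted p under 0.05, against 3.37% of all genes. Their median was -0.22, or -0.28 without replicate 2. Dbt had 21.1, 35.1, 27.9 and 26.01 CPM in combined-ablation hearts, 34.4, 35.4 and 32.4 CPM after PKCδ ablation, 31.6, 37.3, 36.01 and 36.4 CPM in PKCε knockouts and 29.3, 28.3, 31.9 and 30.3 CPM in wild type. Dbt, a subunit of the branched-chain ketoacid dehydrogenase complex, departed by -0.55 ± 0.16, or -0.69 ± 0.13 without replicate 2, the highest of the combined-ablation libraries. Mccc2, of leucine breakdown, departed by -0.42 ± 0.14, Ivd by -0.25 ± 0.099 and Bckdha by -0.32 ± 0.12, with opposite-strand exons over 61.7% of the Bckdha exons. The mitochondrial aminotransferase Bcat2 was the member above 0, at 0.24 ± 0.22. The score departed by -0.22 ± 0.080.

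Mitochondrial lists went the same way with smaller values. TCA cycle genes had 18 of 19 departures below 0 and a median of -0.18. An unadjusted p under 0.05 was found for 2 of them, against 3.37% of all genes below the sum. These were Suclg2, of succinyl-CoA ligase (-0.29 ± 0.12), and Dlst, of the oxoglutarate dehydrogenase complex (-0.24 ± 0.11). Regulators of mitochondrial genes had 16 of 18 below 0, with a median of -0.17. An unadjusted p under 0.05 was found for 4 of them, beside that 3.37% of all genes. Of these, Ppara, the fatty acid-sensing nuclear receptor, departed by -0.28 ± 0.11, its coactivator family member Ppargc1b by -0.28 ± 0.11, Gabpa by -0.33 ± 0.13 and Ppard by -0.23 ± 0.10, while Ppargc1a, the best known coactivator, stood at -0.17 ± 0.22 with an unadjusted p of 0.46 in edgeR. Respiratory chain genes had 33 of 39 below 0 with a median of -0.12, mitochondrial ribosomal proteins 35 of 44 with a median of -0.11, and ATP synthase and nucleotide shuttle genes 16 of 22 with a median of -0.091. Below the sum, 3, 3 and 0 of them had an unadjusted p under 0.05, and above it 0, 1 and 0. Without PKCε replicate 4 these 3 medians were -0.068, -0.060 and -0.030, and over all leave-outs they lay at -0.17 to -0.068, -0.15 to -0.060 and -0.15 to -0.030. No median of these mitochondrial lists exceeded the median SE of a gene, 0.18, which is not the error of a list. Score departures were -0.18 ± 0.094 for the TCA cycle and -0.17 ± 0.058 for the regulators. They were -0.12 ± 0.10 for the respiratory chain, -0.11 ± 0.071 for mitochondrial ribosomal proteins and -0.063 ± 0.095 for ATP synthase and shuttle genes.

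Among the 5 genes with the smallest p below the sum, 3 encode enzymes of fuel metabolism. Pdp2 had 13.8, 21.4, 18.8 and 17.8 CPM in combined-ablation hearts, 31.99, 27.4 and 28.5 CPM after PKCδ ablation, 25.99, 26.01, 23.6 and 29.2 CPM in PKCε knockouts and 21.9, 19.99, 21.7 and 28.9 CPM in wild type. Pdp2, at chr8:104591472-104599026, encodes a phosphatase that activates pyruvate dehydrogenase and departed by -0.89 ± 0.19, or -0.99 ± 0.18 without replicate 2. Its combined-ablation group lay below the PKCδ and PKCε groups without overlap. Gpt2 had 23.7, 28.5, 24.9 and 24.2 CPM in combined-ablation hearts, 34.4, 34.1 and 34.6 CPM after PKCδ ablation, 31.4, 34.6, 32.6 and 34.8 CPM in PKCε knockouts and 32.1, 34.2, 29.7 and 33.6 CPM in wild type. Gpt2, the mitochondrial alanine aminotransferase, departed by -0.48 ± 0.11, and the combined-ablation group lay below every other library. Dgat2 had 169, 248, 249 and 194 CPM in combined-ablation hearts, 373, 368 and 323 CPM after PKCδ ablation, 276, 359, 263 and 313 CPM in PKCε knockouts and 303, 303, 272 and 305 CPM in wild type. Dgat2 catalyses the last step of triglyceride synthesis, departed by -0.76 ± 0.17, and again had its combined-ablation group below every other library. Tmem143 had 89.7, 94.9, 97.3 and 99.5 CPM in combined-ablation hearts, 138, 129 and 130.2 CPM after PKCδ ablation, 119, 123, 114 and 134 CPM in PKCε knockouts and 123, 135, 118 and 127 CPM in wild type, and this transmembrane protein gene departed by -0.43 ± 0.096 with all 4 combined-ablation libraries lowest.

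Ion channel genes leaned below the sum. Of 25 tested, 17 had a departure below 0 and 6 an unadjusted p under 0.05, against 3.37% of all genes below the sum. The median was -0.14, or -0.13 without replicate 2, and the score departed by -0.25 ± 0.069. Scn4a had 33.5, 40.4, 44.3 and 35.7 CPM in combined-ablation hearts, 63.8, 67.03 and 60.2 CPM after PKCδ ablation, 56.7, 68.8, 53.6 and 68.00 CPM in PKCε knockouts and 73.3, 55.4, 51.8 and 58.2 CPM in wild type. Scn4a, a voltage-gated sodium channel best known from skeletal muscle, departed by -0.78 ± 0.17, with the combined-ablation group below every other library. Kcnd2 had 9.48, 11.9, 13.9 and 9.75 CPM in combined-ablation hearts, 16.8, 15.2 and 16.8 CPM after PKCδ ablation, 13.5, 18.2, 15.4 and 17.98 CPM in PKCε knockouts and 10.8, 9.87, 13.1 and 17.4 CPM in wild type. Kcnd2 encodes a channel of the transient outward current of rodent ventricle and departed by -0.88 ± 0.24, with the combined-ablation group below the PKCδ group without overlap. Kcnj2 had 16.3, 20.7, 16.1 and 19.3 CPM in combined-ablation hearts, 22.6, 20.7 and 18.2 CPM after PKCδ ablation, 19.2, 24.1, 21.8 and 17.4 CPM in PKCε knockouts and 13.1, 14.8, 16.8 and 16.99 CPM in wild type. Kcnj2, a channel of the inward rectifier current, departed by -0.61 ± 0.18, and there the 2 separate losses each stood above wild type while the combined loss overlapped them. Kcnj3 and Kcnj5, of the acetylcholine-activated potassium channel, departed by -0.72 ± 0.32 and -0.33 ± 0.12.

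Calcium handling genes had a median of -0.085, or -0.13 without replicate 2, with 14 of 20 below 0. An unadjusted p under 0.05 was found for 3 of them, against 3.37% of all genes below the sum. Atp2a2 had 7079.8, 9528, 6769.9 and 7279 CPM in combined-ablation hearts, 9532, 9298 and 9832 CPM after PKCδ ablation, 7626, 9743, 9084 and 10699 CPM in PKCε knockouts and 7874, 7715, 7875 and 9423 CPM in wild type. Atp2a2, at chr5:122453513-122502225, encodes SERCA2, the pump that returns calcium to the sarcoplasmic reticulum, and departed by -0.49 ± 0.17, or -0.62 ± 0.14 without replicate 2. Combined-ablation replicates 1, 3 and 4 were lower than every other library, and replicate 2 was not. The list's median ranged over -0.13 to -0.042 over the leave-outs, lowest without wild type replicate 4 and nearest 0 without PKCε replicate 4. Camk2a, a calmodulin-dependent kinase, departed by -0.42 ± 0.14 and Hrc, a calcium-binding protein of the reticulum, by -0.52 ± 0.20. Ryr2, the release channel, stood at -0.20 ± 0.15 and Pln, the inhibitor of SERCA2, at -0.18 ± 0.20, neither with an unadjusted p under 0.05, and opposite-strand exons cover 64.7% of the Pln exons. Sln, for sarcolipin, had a departure of 4.19 ± 2.01 that rests on 0 to 0.0817 CPM in PKCε knockouts.

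Mylk4 had 65.7, 137, 76.3 and 67.7 CPM in combined-ablation hearts, 119, 107 and 122 CPM after PKCδ ablation, 122, 114, 119.9 and 159 CPM in PKCε knockouts and 91.8, 85.2, 83.99 and 114 CPM in wild type. Mylk4, at chr13:32700824-32806773, encodes a kinase of the myosin light chain kinase family. Its departure was -0.88 ± 0.31 (adjusted p = 0.607) with all libraries and -1.19 ± 0.17 (adjusted p = 0.046) without replicate 2, which stood apart from the 3 others. It was singled out after its values were seen.

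Of the other pathway lists, most had medians near that of all genes, 0.0059. Median departures were 0.017 for protein kinase C and D signalling, 0.002 for calcineurin, NFAT, HDAC and MEF2 genes, 0.046 for sarcomere and Z disc, -0.014 for endoplasmic reticulum stress, -0.058 for heat shock proteins, 0.053 for the interferon response and 0.073 for the circadian clock. No member of the protein kinase C and D list had an unadjusted p under 0.05 in either direction in edgeR, Prkcd departed by 0.017 ± 0.19 and Prkce by 0.33 ± 0.54, or -0.31 ± 0.26 without replicate 2. Nfatc4, a calcineurin-activated factor, departed by 0.58 ± 0.21, and Nr1d2, a repressor of the clock, by -0.55 ± 0.22. Cytosolic ribosomal proteins had a small median of 0.12, similar in size to the -0.12 of the respiratory chain. Of them, 49 of 54 were above 0, against 51.1% of all genes, and 1 had an unadjusted p under 0.05. Basement membrane genes had a median of 0.11 with 0 such p. DNA replication and mitosis genes had a median of -0.15 with a score departure of -0.17 ± 0.29. Among these 10 lists, the heat shock, ribosomal and basement membrane medians kept their sign in all 25 alternatives and the others did not. The ribosomal median was 0.047 without wild type replicate 2, and the basement membrane median ranged over 0.033 to 0.18 over the leave-outs.

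Cell type markers gave the following values beside these lists. Cardiomyocyte markers had a median of -0.12 with 8 of 10 below 0, and Myh6, for the adult α-myosin heavy chain, departed by -0.30 ± 0.13. Summed, they reached 101013 to 110052 CPM in combined-ablation hearts and 101777 to 125635 CPM in wild type. Endothelial and pericyte or smooth muscle markers had medians of 0.016 and 0.015. Macrophage and monocyte markers had a median of 0.21 with 14 of 16 above 0, and without wild type replicate 3 the median was 0.064. C1qa, a complement gene, departed by 0.31 ± 0.12. The macrophage and monocyte sum was 533 to 622 CPM in combined-ablation hearts, 574 to 616 CPM after PKCδ ablation, 556 to 594 CPM in PKCε knockouts and 629 to 891 CPM in wild type. Schwann cell markers had 0 of 7 above 0 and a median of -0.40, at a summed 6.30 to 13.2 CPM in combined-ablation hearts and 9.47 to 13.8 CPM in wild type. The Schwann median was -0.23 and -0.66 without combined ablation replicates 1 and 2, -0.21 without PKCε replicate 2 and -0.26 without wild type replicate 2. Atrial markers had a median of 0.31, but 0.061 without combined ablation replicate 2 and 0.15 without PKCδ replicate 1, and apart from Nppa and Pam the defining atrial transcripts were low, with Myl7 at no more than 1.79 CPM and Bmp10 at no more than 0.236 CPM in a TAC library. Medians were -0.074 over 7 lymphocyte, 0.26 over 3 neutrophil, -0.15 over 5 erythroid and platelet, 0.060 over 4 epicardial, 0.19 over 7 conduction and 0.13 over 11 skeletal muscle markers, and the tested adipocyte marker, Cfd, stood at 0.81 ± 1.16. Leaving out a library turned the sign of the lymphocyte, erythroid, epicardial, conduction and skeletal medians, which ranged over -0.30 to 0.079, -0.26 to 0.39, -0.62 to 0.44, -0.074 to 0.24 and -0.040 to 0.28, and of the endothelial and pericyte medians. The neutrophil median was 0.13 without PKCδ replicate 3, and the Cfd departure ranged over 0.30 to 2.36. The list of RNA quality markers had a median of 0.034, which ranged over -0.039 to 0.096 over the leave-outs, and a score departure of 0.052 ± 0.11. Its member Rn45s, the ribosomal RNA precursor, departed by -0.43. Rn45s took from 4.51% of the counts in wild type replicate 2 to 8.59% in PKCε replicate 1 among TAC libraries. The part of cell makeup in the departures was not tested.

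Read group by group, the departures had different compositions. For the stress and fetal score, the differences from wild type were 0.36 ± 0.15 for the combined ablation, -0.25 ± 0.17 for PKCδ ablation and -0.11 ± 0.15 for PKCε knockout (log2, ± SE). For the matricellular score they were 0.35 ± 0.23 for the combined ablation, -0.51 ± 0.24 for PKCδ ablation and -0.032 ± 0.23 for PKCε knockout, so the PKCδ group was low and the combined group was not. For the collagen score they were 0.080 ± 0.21 for the combined ablation, -0.45 ± 0.23 for PKCδ ablation and -0.068 ± 0.21 for PKCε knockout. For the fibroblast score they were 0.19 ± 0.15 for the combined ablation, -0.34 ± 0.16 for PKCδ ablation and -0.040 ± 0.15 for PKCε knockout. For the early-response score they were 0.15 ± 0.19 for the combined ablation, -0.30 ± 0.20 for PKCδ ablation and -0.20 ± 0.19 for PKCε knockout. For the fatty acid score they were -0.13 ± 0.096 for the combined ablation, 0.13 ± 0.10 for PKCδ ablation and 0.033 ± 0.096 for PKCε knockout, and for the branched-chain score -0.010 ± 0.055 for the combined ablation, 0.093 ± 0.059 for PKCδ ablation and 0.12 ± 0.055 for PKCε knockout. All of these share the same wild-type libraries. Differences of Myh7 from wild type were 1.61 ± 0.46 for the combined ablation, -1.30 ± 0.50 for PKCδ ablation and 0.83 ± 0.45 for PKCε knockout. Differences of Mmp14 were -0.0022 ± 0.13 for the combined ablation, -0.35 ± 0.14 for PKCδ ablation and -0.32 ± 0.13 for PKCε knockout, those of Pdp2 -0.37 ± 0.13 for the combined ablation, 0.34 ± 0.14 for PKCδ ablation and 0.18 ± 0.13 for PKCε knockout, and those of Scn4a -0.63 ± 0.11 for the combined ablation, 0.094 ± 0.12 for PKCδ ablation and 0.050 ± 0.11 for PKCε knockout. Set against PKCε knockout alone, the further loss of PKCδ gave a median of 0.47 over the stress and fetal genes, whereas PKCδ ablation against wild type gave -0.14. For matricellular genes these medians were 0.36 and -0.46, and for fatty acid genes -0.15 and 0.13.

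Departures after TAC were set against those in unstressed hearts in a joint model of all 29 libraries, with 13764 genes tested. The difference, TAC minus unstressed, was called for 221 genes (1.61%), 85 with a more positive and 136 with a more negative departure after TAC. In this model the departure after TAC itself was called for 0 genes (0%), with 1297 (9.42%) at an unadjusted p under 0.05, and the departure in unstressed hearts for 2131 genes (15.5%). Of the 221 genes, 213 had the larger absolute departure in unstressed hearts, 211 were also called there and 193 had opposite signs in the 2 conditions. These counts depended on single libraries. Leaving out each of the 29 in turn gave 7 to 196 genes with a more positive and 7 to 286 with a more negative departure, and 18 of the 29 moved either count by over 1.5 times. The fewest were left without unstressed PKCδ replicate 3, with 7 and 7, and the most without TAC combined ablation replicate 4, with 196 and 286. The sex label as a term left 34 and 53. In the joint model the 5 sex-linked transcripts had a median departure of -0.46 after TAC and 7.26 unstressed, with a median difference of -7.65. The groups thus also differed in sex-linked transcripts along this comparison. The part of sex in the 221 calls and in the list differences was not tested.

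Of 808 listed genes tested, 12 were called in that difference (1.49%, beside 1.61% of all genes), and they are named here after their values were seen. Myh7 had the largest difference of them, 5.84 ± 0.75 (adjusted p = 0.001, edgeR), with departures of 2.09 ± 0.52 after TAC and -3.75 ± 0.54 unstressed. In unstressed hearts Myh7 had 181, 187, 169.8 and 196 CPM with combined ablation, 139, 146 and 129 CPM with PKCδ ablation, 3426, 4292 and 2373 CPM with PKCε knockout and 193, 159.5, 204 and 194 CPM in wild type. The unstressed PKCε group was thus high and the unstressed combined group was not. Prkce, Prkcd and Myh2 are given per library for TAC hearts alone. The genotype labels of the unstressed libraries, on which these differences also rest, were not checked that way. Gja5, for connexin 40 of the conduction system, had a difference of 1.07 ± 0.28 (departures 0.20 ± 0.20 after TAC and -0.87 ± 0.20 unstressed). The other 10 had a more negative departure after TAC. They included the nuclear receptor Esrra (-0.89 ± 0.22, departures -0.22 ± 0.15 after TAC and 0.67 ± 0.16 unstressed), the mitochondrial RNA polymerase Polrmt (-0.83 ± 0.21), the short-chain dehydrogenase Acads (-0.63 ± 0.16), the mitochondrial ribosomal genes Mrpl2 (-0.56 ± 0.14) and Mrps12 (-1.06 ± 0.22), and Bckdha (-0.78 ± 0.18). Jund (-1.11 ± 0.25), the class IIa deacetylase Hdac4 (-0.97 ± 0.21), Mef2d (-0.60 ± 0.16) and the replication helicase subunit Mcm5 (-1.59 ± 0.42) completed them. Without the library labelled combined ablation replicate 2 after TAC, the differences of Mrpl2, Mef2d, Mcm5 and Gja5 had adjusted p-values of 0.051 to 0.054 in edgeR and were no longer called. Opposite-strand exons cover 52.6% of the Jund exons and 22.4% of those of Hdac4.

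By list, the stress and fetal genes had a median departure of 0.66 after TAC and 0.41 unstressed in the joint model, and fatty acid genes -0.27 and -0.30. Matricellular genes had 0.71 after TAC and 0.18 unstressed, collagens 0.62 and -0.072, fibroblast markers 0.54 and -0.12, and DNA replication genes -0.14 and 0.63. In the difference, 0 collagen genes, 0 matricellular genes and 0 fibroblast markers were called, beside 1.61% of all genes. At that share, lists of 15, 29 and 15 tested genes would hold few calls or none. Their median differences were 0.56, 0.77 and 0.64. At an unadjusted p under 0.05 in edgeR, 3, 8 and 5 of them had a more positive departure after TAC and 0 a more negative one. Over all 13764 genes these counts were 1179 and 1353. Median differences of similar size were also found in other lists. They included -0.90 for DNA replication, 0.95 for skeletal muscle markers, 0.78 for conduction markers and 0.51 for the interferon response.

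**Figure D5:**
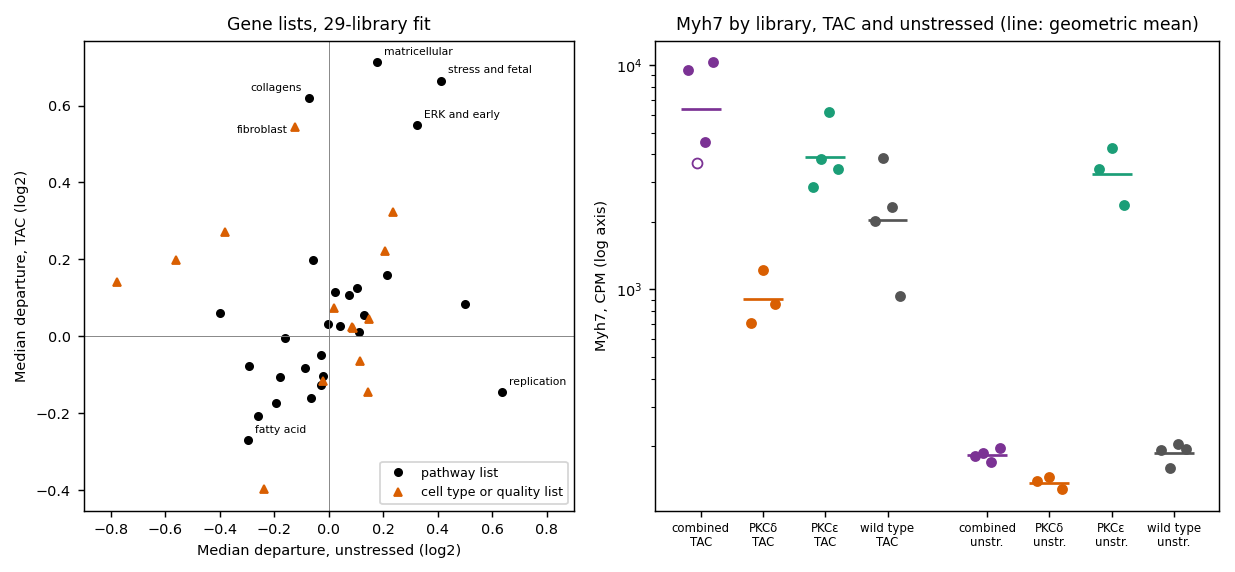
The left panel plots, for each gene list with at least 3 tested members, the median departure after TAC against that in unstressed hearts (log2, 29-library fit). The sex-linked list, with medians of -0.46 after TAC and 7.26 unstressed, is left out. The right panel gives Myh7 in CPM on a log axis for each library of the 8 groups, with geometric means as lines and combined ablation TAC replicate 2 as an open point. Matricellular and stress lists lie highest on the TAC axis (0.71 and 0.66), and Myh7 in unstressed PKCε knockouts (2373 to 4292 CPM) lies above unstressed wild type (159.5 to 204 CPM).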

How the data were processed

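RNA of mouse hearts was measured in 29 libraries. What the authors deposited are unnormalized counts for each gene symbol; the submitters' processing notes name mm10, HTSeq, Bowtie2 and TopHat2 2.0.10. They come from non-strand-specific single-end libraries per the labels' protocols; the annotation is not given in the sources used here. Without strand, overlapping genes share or lose reads. The table held 23418 genes, of which 27 carry date numbers in place of symbols and are not named; the other 23391 had the same counts in the libraries' own files. Depth was 12246713 to 17314598 counts per TAC library.

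Departures were tested in R 4.3.3 by edgeR 4.0.16 (quasi-likelihood, robust, TMM, a filter on low counts by group) on 15 TAC libraries with 4 group means, no covariate and 11 residual degrees of freedom. A called gene had a Benjamini-Hochberg adjusted p under 0.05 over all genes tested. The SE of a gene was the size of its log2 estimate divided by the square root of the test's F statistic. It is a poor guide where a group had almost no counts, as for Sln. CPM values were scaled by TMM; list scores used log2 CPM with a prior count of 2. The difference from unstressed hearts was fitted on all 29 libraries. A library was taken as 1 sample; its animal is given nowhere beyond the title, so the p-values reflect differences among libraries that may be technical. The closest replicates, PKCδ TAC 1 and 2, differed by a chi-square of 2.45 per degree of freedom, above sampling noise.

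The members, the 43 gene lists and the tests were chosen with earlier results of these data known. Named were Prkcd and Prkce, called genes or otherwise the 5 smallest p per direction above a mean log2 CPM floor of 2, the 2 smallest p per list and 16 cardiac genes, of which the text gives a part. Other list members were named after their values were seen, and some members are counted but not reported here by name. Alternatives were RLE normalization, no filter, DESeq2 1.42.0, terms for sex label, Y-linked score and replicate, male-labelled libraries, each library left out, 2 left out together, and all 29 libraries with and without a sex term. The script was tested on simulated data. Positions and promoters are RefSeq's for GRCm38.p6, and exon overlaps are from GENCODE vM21. Figures used matplotlib 3.10.9 in Python 3.11.15.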

Additional observations from a re-analysis of the deposited data

Results flagged for a closer look

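In groups of 4 libraries, a library was singled out where its gap to the nearest other, as a share of the group's range, exceeded Dixon's 95% limit. This held in 6 of 123 group tests, and chance alone gives about 1 in 20. The items were chosen with earlier results of these data known, and Mylk4 after its values were seen. The count therefore cannot be judged against that share. The library labelled combined ablation TAC replicate 2 had 32.6 CPM of Prkce, against 8.42 to 11.3 CPM in the others of its group, and 137 CPM of Mylk4, against 65.7 to 76.3 CPM. TAC wild type replicate 2 had 10.5 CPM of Myh2, against 0.069 to 0.288 CPM in the other wild-type libraries. TAC wild type replicate 3 had the lowest Dgat2 of its group, 272 CPM, and the lowest fatty acid score, -0.13, and TAC wild type replicate 4 the highest Atp2a2, 9423 CPM. Without the library concerned, the departures were -0.31 for Prkce (against 0.33 with all libraries), -0.72 for Dgat2 (against -0.76), -0.57 for Atp2a2 (against -0.49) and a median of -0.26 for fatty acid genes (against -0.28).

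The departure differed between TAC and unstressed hearts for 221 genes in edgeR's joint model. Among genes named in the text, the differences (TAC minus unstressed, log2) were 5.84 for Myh7 and 1.07 for Gja5. They were negative for Acads (-0.63), Esrra (-0.89), Polrmt (-0.83), Bckdha (-0.78), Mrpl2 (-0.56), Mrps12 (-1.06), Jund (-1.11), Hdac4 (-0.97), Mef2d (-0.60) and Mcm5 (-1.59). Of the genes with the smallest p below the sum, Tmem143 (-0.78, adjusted p = 0.024) and Gpt2 (-0.69, adjusted p = 0.024) differed too. Their unstressed departures were 0.36 ± 0.12 and 0.21 ± 0.10.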

How the results depend on the processing

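The departure after TAC was recomputed under 25 alternatives. DESeq2 called 1 gene above and 2 below the sum, leaving out each library gave 0 above and 0 to 1 below, and the others gave 0 and 0. With the replicate number as a block, 0 genes were called and 1194 had an unadjusted p under 0.05; the numbers do not pair the libraries, since deviations of 21 same-numbered pairs correlated at -0.24 to 0.16 (median -0.037), 3 of them over 0.1. The median kept its sign in all alternatives for 25 of 43 lists. It ranged over 0.51 to 0.75 for stress and fetal genes, 0.60 to 0.92 for matricellular genes, 0.37 to 1.17 for collagens, 0.37 to 0.71 for early-response genes, 0.41 to 0.88 for fibroblast markers, -0.43 to -0.21 for fatty acid genes and -0.32 to -0.16 for branched-chain genes. The highest matricellular, collagen and fibroblast and the lowest fatty acid and branched-chain medians came from libraries labelled male alone, with 1 combined and 1 PKCδ library. Of 108 named genes, 101 kept their sign; the exceptions were Prkcd, Prkce, Ly6c1, Cd3d, Cfd, Xist and Ddx3y. Tried after seeing the data, the same combination of mean CPM on the linear scale had the opposite sign for 222 genes (1.65%). For the difference between TAC and unstressed (85 more positive and 136 more negative), DESeq2 called 175 and 350, the sex label as a term 34 and 53, a score of Y-linked transcripts 242 and 295, the replicate block 40 and 61, and libraries labelled male 4 and 1; the cause was not tested. Leave-outs gave 7 to 196 and 7 to 286. Those that moved a count by over 1.5 times were unstressed wild type 1 (24 and 26), unstressed wild type 2 (65 and 88), unstressed PKCδ 1 (56 and 94), unstressed PKCδ 2 (101 and 255), unstressed PKCδ 3 (7 and 7), unstressed PKCε 1 (14 and 9), unstressed PKCε 2 (34 and 55), unstressed PKCε 3 (187 and 265), unstressed combined 1 (40 and 58), unstressed combined 3 (35 and 40), TAC wild type 1 (56 and 85), TAC wild type 4 (33 and 53), TAC PKCδ 1 (23 and 29), TAC PKCδ 2 (19 and 29), TAC PKCδ 3 (49 and 59), TAC PKCε 2 (33 and 33), TAC combined 3 (134 and 238) and TAC combined 4 (196 and 286). Groups of 3 or 4 libraries limit the precision.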
